A study of Homo sapiens with 8 samples.

Results

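Wnt ligands, their Frizzled receptors and the genes that feed back on Wnt signalling were measured in BT474, a long-established line of human breast carcinoma cells that carries an ERBB2 amplification. The 55 genes were taken by their symbols from the 26475 rows of the count table; the rule uses no measured value, but it was written with earlier results of these data known. They are 19 WNT ligands, 2 genes of Wnt secretion, 10 Frizzled (FZD) receptors, 7 secreted or membrane antagonists, 9 genes of the R-spondin, LGR and ubiquitin ligase module, 4 AXIN and NKD genes and 4 TCF and LEF factors. RNA was sequenced from 4 libraries labelled NPY1R high and 4 labelled NPY1R low, where NPY1R encodes a receptor for neuropeptide Y. All 8 are BT474 cells plated below confluence, and the labels name no drug and no other allele. How high and low cells were obtained is not stated, although the labels enter it as a genotype. The labels do not say that replicates came from separate cultures, so p-values measure the spread between these libraries, which may be technical. With a single line, other breast cancer cells are not represented.

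Wnt proteins are lipid-modified secreted factors that bind a Frizzled receptor together with LRP5 or LRP6. Binding stops the AXIN and APC complex from marking beta-catenin for destruction, and beta-catenin then acts with TCF and LEF factors on target genes such as AXIN2, LGR5, RNF43, ZNRF3, NKD1, NOTUM and LEF1. RNF43 and ZNRF3 are ubiquitin ligases that remove Frizzled from the cell surface, and R-spondins bound to LGR4, LGR5 or LGR6 block them. In breast epithelium WNT4 is known as a paracrine signal downstream of the progesterone receptor.

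The label check came first. NPY1R had 20354, 19571, 28986 and 17256 counts in NPY1R high replicates 1 to 4, and 2707, 2709, 2028 and 2639 in NPY1R low replicates 1 to 4, so each library matched its label. Library totals ranged from 18025648 to 30609791 counts. The 11 luminal epithelial markers summed to between 7881.7 and 10495 CPM (counts relative to the scaled library size) in every library. Of these, ESR1 and GATA3 rose, with log2 changes of 0.59 and 0.60, while EPCAM and FOXA1 fell, by 0.30 and 0.23 on the log2 scale. Of 9 fibroblast markers, 8 had fewer than 11 counts over all 8 libraries, and COL1A2, DCN, PDGFRB and THY1 were at 0; the summed level of the list was 10.9 to 17.5 CPM in NPY1R high and 10.4 to 17.6 CPM in NPY1R low. The corresponding sums were 8.07 to 11.7 and 7.39 to 10.4 CPM for 8 myoepithelial and basal markers, 9.22 to 15.6 and 13.5 to 18.2 CPM for 5 endothelial markers, and 1.43 to 2.27 and 1.69 to 2.77 CPM for 8 immune markers. Within each group, libraries also differed along a trend with transcript GC content, the Spearman correlation across genes of a library's deviation from its group mean with GC which was 0.561 for NPY1R low replicate 1 and -0.644 for NPY1R low replicate 4.

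Levels in both groups were dominated by a few genes of the module. A filter on low counts left 28 of the 55 genes for testing. Of the other 27, 8 had 0 counts in every library (WNT1, WNT7A, WNT8A, WNT9B, FZD10, SFRP2, SFRP4 and RSPO4), 8 had 1 to 10 counts over the 8 libraries and 11 had more, up to 73 for WNT3. A count of 0 allows up to 3 counts, or 0.101 to 0.165 CPM depending on the library, and these limits cover counting error only. Per kilobase of transcript, the most abundant were WLS at 34.1 CPM per kb, LGR4 at 20.2, RNF43 at 15.1 and AXIN1 at 11.2, then FZD4 at 5.79 CPM per kb. No ligand exceeded the 0.951 CPM per kb of WNT7B. The beta-catenin targets named above spread widely. RNF43 and ZNRF3 stood at 15.1 and 3.30 CPM per kb. AXIN2, NKD1, LEF1, LGR5 and NOTUM stood at 0.101, 0.0445, 0.674, 0.0169 and 0.0232 CPM per kb.

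**Figure D1:**
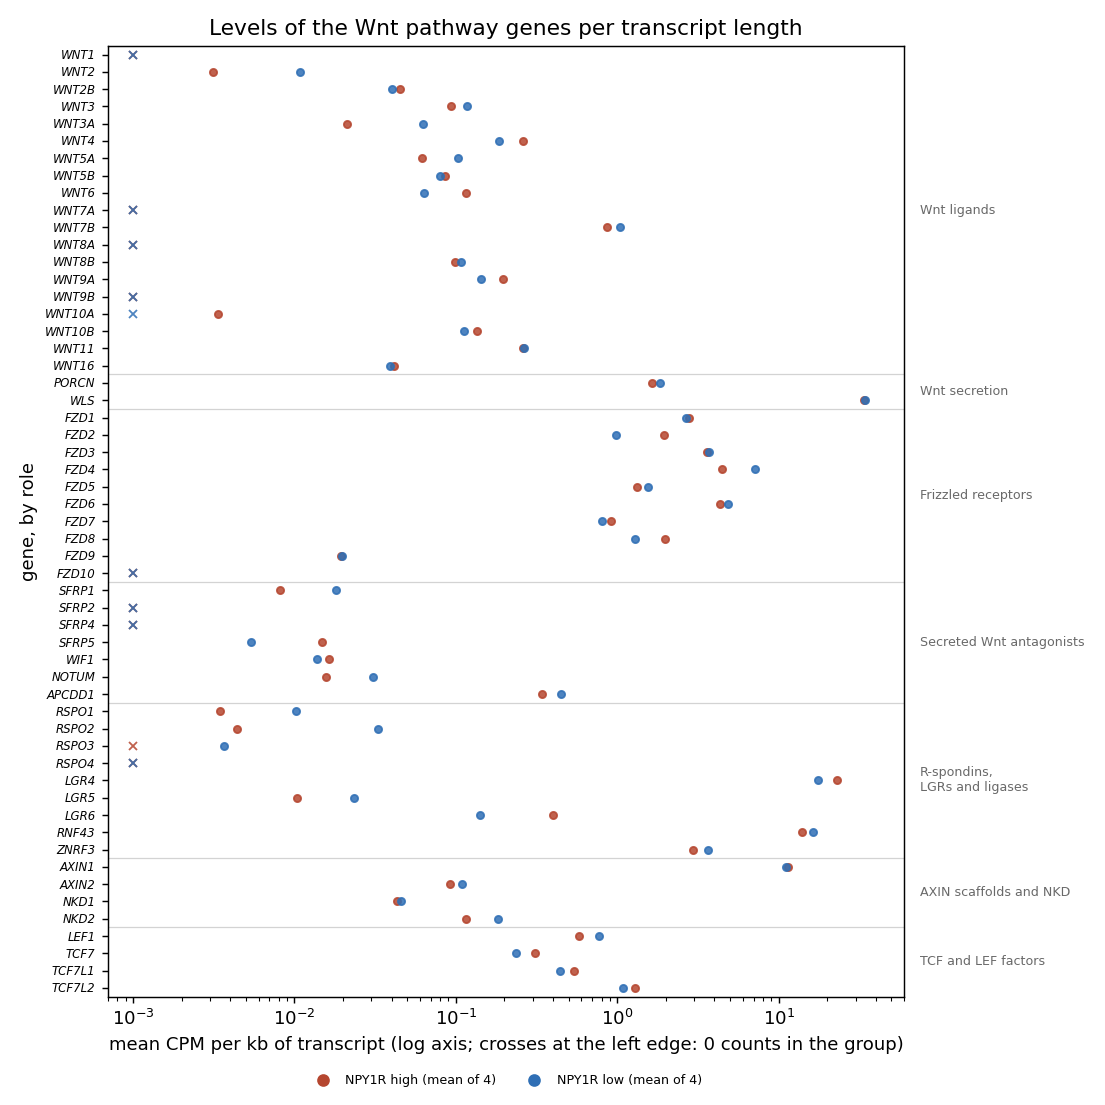
Mean level of each of the 55 genes in CPM per kilobase of transcript (log axis), with the 4 NPY1R high libraries in red and the 4 NPY1R low libraries in blue, grouped by role. WLS, LGR4, RNF43 and AXIN1 lie to the right at 11.2 CPM per kb or more, while ligands, R-spondins and secreted antagonists lie at or below 0.951 in their mean over the 8 libraries.

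Between the groups, 5 of the 28 tested genes passed the threshold, an adjusted p of 0.05 from edgeR (quasi-likelihood). The receptors FZD2, FZD8, LGR4 and LGR6 were higher and the receptor FZD4 lower in NPY1R high. The 5 are 17.9% of the tested genes of the module, against 13.6% of all 14008 genes tested. By direction, 4 of 28 (14.3%) were higher, against 5.78% of all genes, and 1 of 28 (3.57%) was lower, against 7.81%. Over all genes 810 of 1904 calls were higher, which became 1009 of 1792 with upper-quartile factors and 949 of 1756 with library totals, while the 5 receptors kept their calls and directions. In bulk RNA a change in the share of cells with a transcript and a change in RNA per cell cannot be told apart. The share called in either direction is near that of the whole table, and so is the share with groups that do not overlap, 7 of 28 (25%) against 20.2%. At an unadjusted p under 0.05 it was 9 of 28 (32.1%) against 26.2%. The median log2 change over the 28 was -0.03, the same as the -0.03 of all tested genes. The median absolute log2 change was 0.27 against 0.14 over all tested genes, a comparison not matched for level. Only 11 of the 28 had a mean of at least 5 CPM. All 5 called genes encode receptors; no ligand, secretion gene, antagonist, AXIN or NKD gene or TCF or LEF factor passed.

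**Figure D2:**
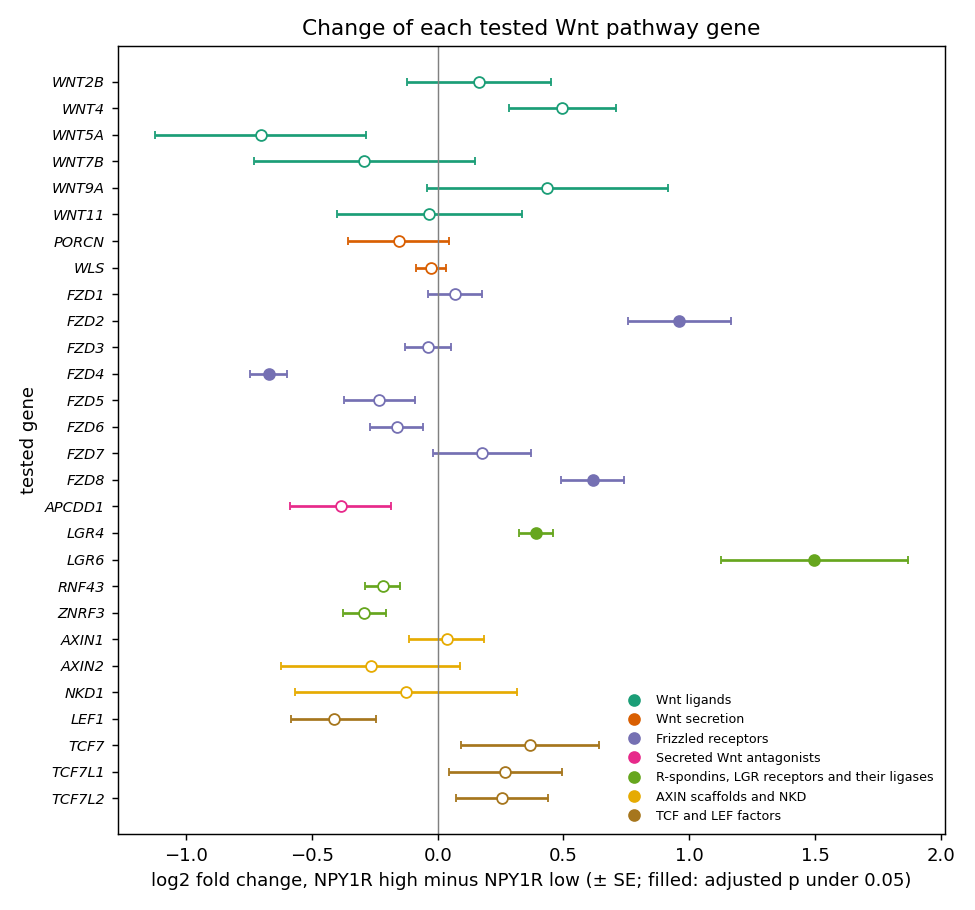
Log2 fold change of each of the 28 tested genes, NPY1R high minus NPY1R low, with its standard error, coloured by role. Filled points passed an adjusted p of 0.05: FZD2, FZD8, LGR4 and LGR6 lie to the right of 0 and FZD4 to the left.

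The promoters of 4 of the 5 called receptors are shown because these genes are where the groups differ; they were matched by symbol to the RefSeq promoter table on GRCh38.p14, which held 40 of the 55 genes. FZD2 was not among them. Each is the 250 bases before the gene's start, read 5′ to 3′ on the gene's strand, and capitals mark CCAAT and TATAAA boxes on either strand (CCAAT reads ATTGG on the other strand). These 2 boxes were chosen after the sequences were seen.
FZD4, chr11:86955396-86955645, minus strand: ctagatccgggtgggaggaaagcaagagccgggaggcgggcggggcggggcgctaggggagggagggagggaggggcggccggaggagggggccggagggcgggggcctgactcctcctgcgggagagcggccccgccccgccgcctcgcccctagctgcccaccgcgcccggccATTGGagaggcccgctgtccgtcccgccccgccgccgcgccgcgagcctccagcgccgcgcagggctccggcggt
FZD8, chr10:35642297-35642546, minus strand: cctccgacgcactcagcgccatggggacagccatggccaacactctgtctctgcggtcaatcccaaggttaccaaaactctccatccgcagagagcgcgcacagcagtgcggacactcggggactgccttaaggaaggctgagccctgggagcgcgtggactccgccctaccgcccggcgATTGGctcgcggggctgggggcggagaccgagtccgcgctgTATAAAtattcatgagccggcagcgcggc
LGR4, chr11:27472791-27473040, minus strand: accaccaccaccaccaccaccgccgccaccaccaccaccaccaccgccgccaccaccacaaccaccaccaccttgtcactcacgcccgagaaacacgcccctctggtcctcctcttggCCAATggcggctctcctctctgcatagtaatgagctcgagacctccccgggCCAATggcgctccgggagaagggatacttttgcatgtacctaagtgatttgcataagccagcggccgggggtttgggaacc
LGR6, chr1:202193549-202193798, plus strand: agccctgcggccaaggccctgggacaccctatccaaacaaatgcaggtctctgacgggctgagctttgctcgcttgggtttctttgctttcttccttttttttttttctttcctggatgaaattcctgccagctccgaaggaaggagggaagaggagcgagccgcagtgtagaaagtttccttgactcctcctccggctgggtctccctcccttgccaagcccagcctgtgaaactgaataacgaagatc
FZD4, a receptor that fell, and FZD8 and LGR4, receptors that rose, each hold CCAAT, FZD8 holds TATAAA as well, and LGR6 holds neither. CCAAT was found in 15 of the 40 promoters of the module (37.5%) and in 32% of 35116 promoters of the same length, and TATAAA in 2 (5%) against 10.7%. The TCF and LEF form CTTTGAA was searched on both strands, as were the form CTTTGAT, the form CTTTGTT and the form CTTTGTA. None of the 40 promoters held any of them, against 12% of all promoters. The estrogen response element, made of GGTCA, then 3 free bases, then TGACC, was in none of the 40 and in 0.0399% of all. The module's promoters are rich in G and C, with a median of 70.8% GC and 23.5 CpG dinucleotides per 250 bases, against 58% and 11 over all promoters. The module's genes are all protein-coding, with a single promoter taken for each. The background was every promoter entry, without either restriction, so these comparisons are between unlike sets. The 4 shown have 80.8% (FZD4), 65.2% (FZD8), 62% (LGR4) and 53.2% GC (LGR6), so FZD4 lies above the module's median and the 3 others below it.

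Ligands were scarce in both groups. Of 19 WNT genes, 6 could be tested and 0 passed in edgeR's quasi-likelihood test, against 13.6% of all genes. At an unadjusted p under 0.05 there was 1 of the 6 (16.7%, against 26.2% of all genes). WNT7B, the most abundant, had 3.81, 4.16, 1.52 and 3.96 CPM in NPY1R high replicates 1 to 4 and 4.33, 6.69, 4.03 and 1.3 CPM in NPY1R low replicates 1 to 4. The groups overlapped, with a log2 change of -0.29 (SE 0.44) and an adjusted p of 0.753. Its lowest libraries, NPY1R high replicate 3 and NPY1R low replicate 4, were also the libraries with the most negative correlations with GC content in their groups, at -0.507 and -0.644, and the WNT7B transcript has 63% GC. With each library's GC trend removed the log2 change was -0.20 (adjusted p 0.699). WNT9A was also lowest in these libraries of each group, with 12 counts in NPY1R high replicate 3 and 3 in NPY1R low replicate 4, where the other libraries had 13 to 33. Not every GC-rich gene shared this order. FZD2 (64.9% GC) was lowest in NPY1R high replicate 2 and NPY1R low replicate 3. WNT11 (59.5% GC) was lowest in NPY1R high replicate 4 and NPY1R low replicate 3. A part of GC content in these low values was not tested.

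WNT4 was the ligand with an unadjusted p under 0.05. Its levels were 0.962, 0.930, 1.12 and 0.991 CPM in NPY1R high and 0.738, 0.806, 0.778 and 0.511 CPM in NPY1R low. Every NPY1R high library stood above every NPY1R low one, but the libraries held only 13 to 31 counts. The log2 change of 0.50 (SE 0.21) had an adjusted p of 0.173 and so did not pass. WNT5A, a ligand known for signalling without beta-catenin, had 23, 6, 8 and 4 counts in NPY1R high and 24, 20, 11 and 14 in NPY1R low. NPY1R high replicate 1 stood with the NPY1R low libraries, and the log2 change was -0.70 (SE 0.42, adjusted p 0.342). Without that library WNT5A passed as lower, with a log2 change of -1.37 (adjusted p 0.0312). This was the 1 refit of 20 in which WNT5A passed. In edgeR fits that left out 1 library, its adjusted p reached 0.584. WNT2B and WNT11 had 0.464 and 0.506 CPM in the mean over the 8 libraries, and neither passed. The 9 untested ligands with any count (WNT2, WNT3, WNT3A, WNT5B, WNT6, WNT8B, WNT10A, WNT10B and WNT16) had at most 20 counts in a library.

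The machinery that exports Wnt proteins did not pass. WLS, which carries lipidated Wnts to the cell surface, had 93.8, 92.2, 95.5 and 89.5 CPM in NPY1R high and 90.1, 89.9, 93.6 and 104 CPM in NPY1R low. Its groups overlapped, and the log2 change was -0.03 (SE 0.06, adjusted p 0.849), with a sign that turned under other scalings. PORCN, the acyltransferase that attaches the lipid, had 3.10 ± 0.470 CPM against 3.44 ± 0.855 CPM in NPY1R low (SD, n = 4 each; adjusted p 0.707).

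Frizzled receptors held 3 of the 5 calls, which is 3 of 8 tested (37.5%, against 13.6% of all genes). Of the 8, 2 (25%) were higher, against 5.78% of all genes, and 1 (12.5%) was lower, against 7.81%. FZD4, a receptor for Wnts and for norrin, had 32.1, 36.3, 30.1 and 33.4 CPM in NPY1R high and 51.5, 49.2, 53.8 and 55.7 CPM in NPY1R low. All NPY1R high libraries lay below all NPY1R low libraries. The fall was 1.59-fold, a log2 change of -0.67 (SE 0.07, adjusted p 0.000264.) FZD4 (chr11:86945679-86955391, minus strand, GENCODE 29 on GRCh38) shares 7232 bases of its span with PRSS23, a serine protease gene that also fell, from 214.2 ± 11.5 to 154.4 ± 5.69 CPM (SD, n = 4 each; log2 change -0.47, SE 0.05, adjusted p 0.000326). FZD4 counts were not whole numbers in 8 of 8 libraries, nor were those of PRSS23. Whether the counting used strand is not stated, so the 2 genes' reads cannot be told apart with certainty and the fall of FZD4 is uncertain.

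FZD8 (chr10:35638249-35642278) moved the other way. It had 8.11, 8.55, 7.60 and 7.65 CPM in NPY1R high and 4.87, 6.34, 4.85 and 4.75 CPM in NPY1R low. No library of either group reached the range of the other. It rose 1.53-fold, a log2 change of 0.62 (SE 0.13, adjusted p 0.00933.)

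FZD2 (chr17:44557459-44559570) is a receptor often linked to WNT5A signalling. Its levels were 3.95, 3.09, 3.73 and 5.67 CPM in NPY1R high, highest in replicate 4, and 2.18, 2.35, 1.69 and 2.12 CPM in NPY1R low. The groups did not overlap. The rise was 1.95-fold, a log2 change of 0.96 (SE 0.21, adjusted p 0.0117.) It was smaller between replicates 1 and 2 alone (log2 difference 0.61) than between replicates 3 and 4 alone (1.25); the corresponding values were 0.58 and 0.66 for FZD8, and -0.56 and -0.79 for FZD4. All FZD2 and FZD8 counts were whole numbers.

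**Figure D3:**
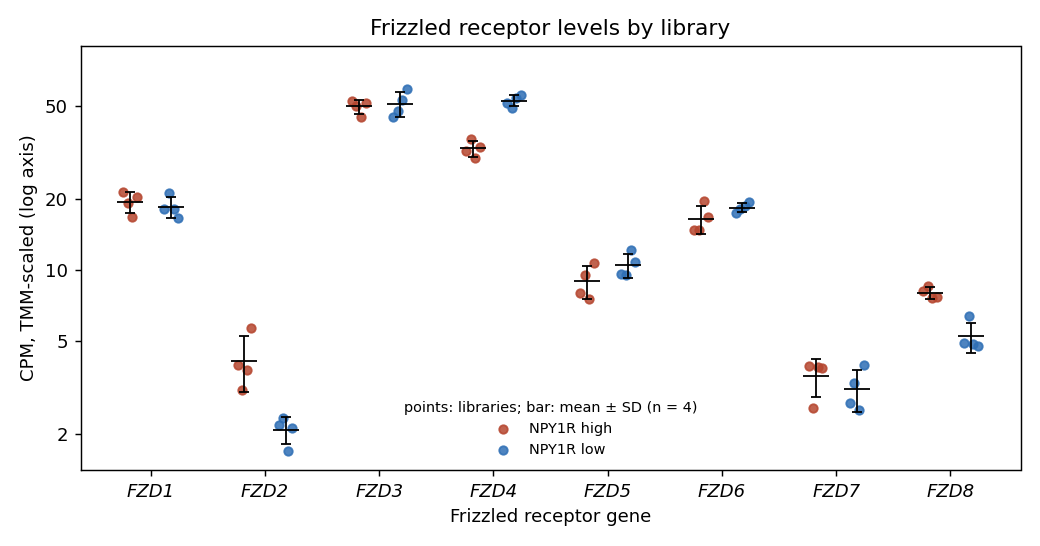
CPM of the 8 tested Frizzled genes (log axis) in each library, NPY1R high in red and NPY1R low in blue, with the mean and SD of 4 libraries as bars. Only for FZD2, FZD4 and FZD8 are the 2 sets of points separate: FZD4 is 30.1 to 36.3 against 49.2 to 55.7 CPM, while FZD2 and FZD8 are higher in NPY1R high.

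The other 5 tested Frizzled genes did not pass, and their groups overlapped. FZD3 had 52.6, 49.98, 44.8 and 51.4 CPM in NPY1R high and 44.9, 47.7, 52.9 and 58.8 CPM in NPY1R low, with a log2 change of -0.04 (SE 0.09, adjusted p 0.853) whose sign turned under other scalings. FZD1 had 21.5, 19.2, 16.8 and 20.5 CPM in NPY1R high and 18.2, 21.2, 18.3 and 16.7 CPM in NPY1R low (log2 change 0.07, SE 0.11, adjusted p 0.760). FZD5 had 8.0, 9.52, 7.53 and 10.7 CPM in NPY1R high and 9.56, 9.49, 12.1 and 10.8 CPM in NPY1R low (log2 change -0.23, SE 0.14, adjusted p 0.348). Each of these genes encodes a membrane receptor of the same family. FZD6 had 14.8, 14.7, 19.6 and 16.7 CPM in NPY1R high and 17.4, 18.1, 18.7 and 19.5 CPM in NPY1R low, its highest library being an NPY1R high one (log2 change -0.16, SE 0.11, adjusted p 0.391). FZD7 ranged from 2.57 to 3.88 CPM in NPY1R high and from 2.52 to 3.93 CPM in NPY1R low (log2 change 0.18, SE 0.19, adjusted p 0.644). FZD9 had 9 counts over all libraries.

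The make-up of Frizzled RNA differed more than its sum. Added per kilobase, the Frizzled genes gave 20.7 to 22.8 CPM per kb in NPY1R high and 21.8 to 24.2 CPM per kb in NPY1R low, so the sums overlapped. FZD4 made up 20.9 ± 1.81% of that sum in NPY1R high and 30.9 ± 1.29% in NPY1R low (SD, n = 4 each), again with the limit from PRSS23. FZD2 made up 9.02 ± 1.99% and 4.30 ± 0.634%, and FZD8 9.26 ± 0.774% and 5.61 ± 0.868%. The ratio of FZD4 to FZD8 per kilobase was 2.16 to 2.38 in NPY1R high and 4.23 to 6.40 in NPY1R low. FZD4 was the leading Frizzled in every NPY1R low library, whereas in NPY1R high replicate 3 FZD6 led with 25.0% against 19.7%. These shares were computed after the gene changes were seen and were not tested.

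**Figure D4:**
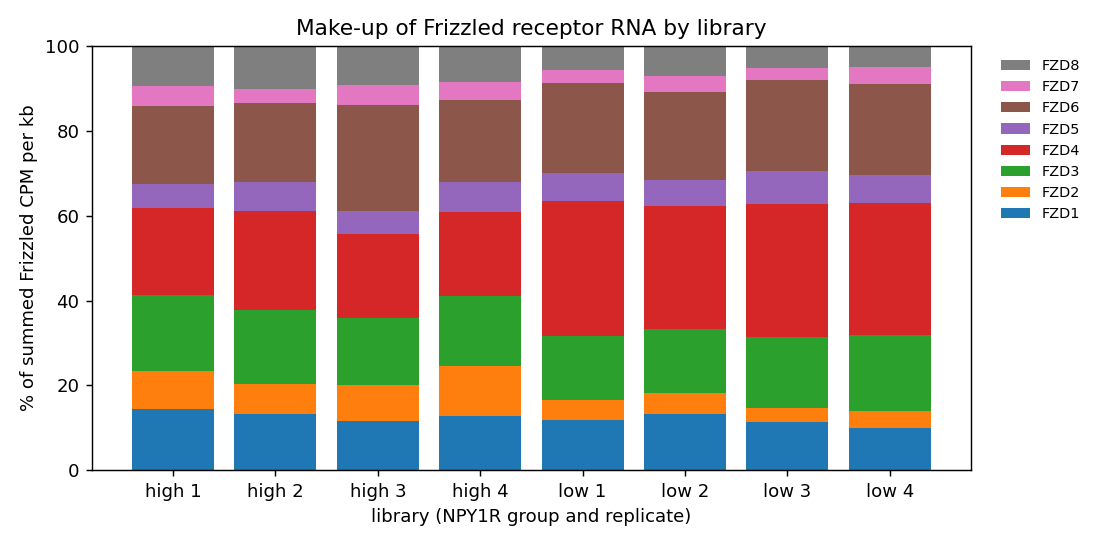
Share of each Frizzled gene in the summed Frizzled CPM per kilobase of a library, in percent, for the 4 NPY1R high and 4 NPY1R low libraries. The FZD4 band covers 20.9% of the bar in the NPY1R high mean and 30.9% in the NPY1R low mean, and the FZD2 and FZD8 bands are wider in NPY1R high.

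Of the 3 R-spondin receptors, LGR4 and LGR6 passed as higher and LGR5 had too few counts to test. With the ligases RNF43 and ZNRF3, 2 of 4 tested genes of this role passed (50%, against 13.6% of all genes). LGR4 (chr11:27365961-27472775), the most abundant LGR, had 116, 113, 127 and 122 CPM in NPY1R high and 83.5, 88.8, 90.6 and 101 CPM in NPY1R low. Its lowest NPY1R high library stood above its highest NPY1R low library. The rise was 1.31-fold, a log2 change of 0.39 (SE 0.07, adjusted p 0.00373.) It was similar within replicates 1 and 2 (log2 difference 0.41) and within replicates 3 and 4 (0.38).

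LGR6 (chr1:202193901-202319781) had 38, 18, 49 and 36 counts in NPY1R high and 13, 9, 14 and 16 in NPY1R low. In CPM this was 1.31, 0.669, 1.77 and 1.98 against 0.436, 0.315, 0.641 and 0.628, so the groups did not overlap, although NPY1R high replicate 2 stood only just above the highest NPY1R low library. The rise was 2.82-fold, a log2 change of 1.5 (SE 0.37, adjusted p 0.0238.) It missed the threshold without NPY1R high replicate 3 (adjusted p 0.0676) or 4 (0.0655), and without NPY1R low replicate 1 (0.0672) or 2 (0.0624). LGR5, the intestinal stem cell marker, had 4, 0, 0 and 1 counts in NPY1R high and 0, 0, 6 and 4 in NPY1R low.

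R-spondins, the ligands of these receptors, were near the floor: RSPO1, RSPO2, RSPO3 and RSPO4 had 4, 12, 1 and 0 counts in all. RSPO2 had 1 count in the NPY1R high libraries together and 4, 4, 3 and 0 counts in NPY1R low, too few to test.

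The ligases that the R-spondin receptors act on had values on the lower side in NPY1R high without passing. RNF43 had 83.5, 81.0, 68.6 and 79.0 CPM in NPY1R high and 92.2, 88.3, 96.1 and 86.6 CPM in NPY1R low, with no overlap. Its log2 change was -0.22 (SE 0.07) with an adjusted p of 0.0686, and its counts were not whole numbers in any of the 8 libraries. ZNRF3 had 22.2, 20.4, 19.2 and 19.6 CPM in NPY1R high and 25.9, 26.1, 25.8 and 22 CPM in NPY1R low. NPY1R low replicate 4 was within the NPY1R high range, and the log2 change of -0.29 (SE 0.09) had an adjusted p of 0.0502. Without NPY1R low replicate 4, ZNRF3 passed with a log2 change of -0.31 (adjusted p 0.0217). Both ligases passed with each library's GC trend removed, with adjusted p of 0.0311 for RNF43 and 0.0143 for ZNRF3. RNF43 did not pass in 18 of 21 refits, and ZNRF3 did not pass in 16 of 21. In edgeR fits that left out 1 library, the adjusted p was 0.0697 to 0.223 for RNF43 and 0.0217 to 0.186 for ZNRF3. Per kilobase, the ratio of LGR4 to RNF43 and ZNRF3 together was 1.22 to 1.62 in NPY1R high and 0.790 to 1.04 in NPY1R low, a comparison chosen after the values were seen and not tested.

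**Figure D5:**
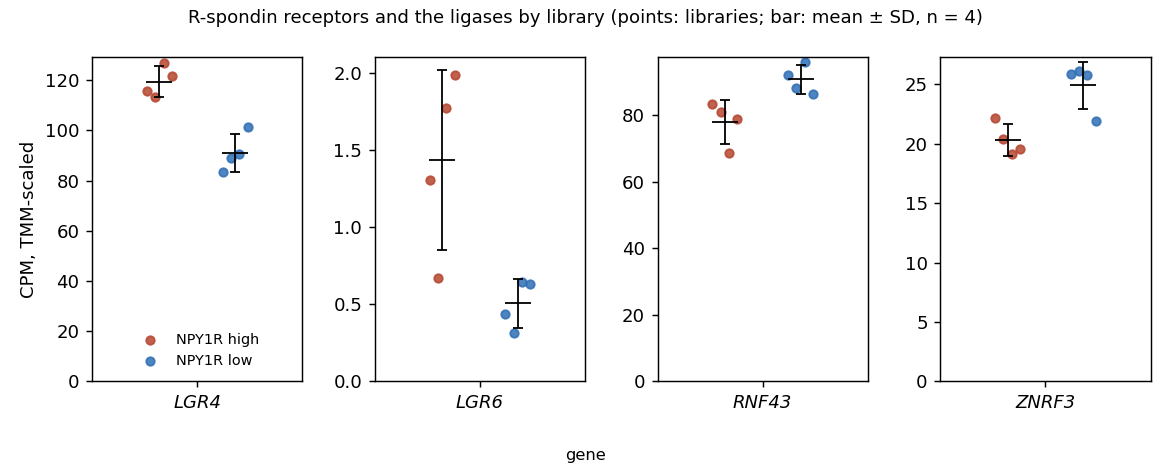
CPM of LGR4, LGR6, RNF43 and ZNRF3 in each library (linear axes from 0), NPY1R high in red and NPY1R low in blue, with mean and SD of 4 libraries. LGR4 and LGR6 are higher in NPY1R high; RNF43 (78.0 against 90.8 CPM in the mean) and ZNRF3 (20.3 against 24.9 CPM) did not pass the threshold.

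The SFRP genes, WIF1 and NOTUM were close to absent. SFRP1 had 12 counts over all libraries, SFRP5 4, WIF1 7 and NOTUM, an enzyme that strips the lipid from Wnts, 10. APCDD1, a membrane antagonist, was the only one tested, with 1.37, 1.00, 1.52 and 1.32 CPM in NPY1R high and 1.88, 2.00, 1.51 and 1.41 CPM in NPY1R low. The groups overlapped (log2 change -0.39, SE 0.20, adjusted p 0.266).

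Among the scaffolds and feedback genes, AXIN1 had 44.1, 35.8, 38.8 and 47.1 CPM in NPY1R high and 47.1, 46.8, 38.0 and 29.5 CPM in NPY1R low, with a log2 change of 0.04 (SE 0.15, adjusted p 0.922). AXIN2, the most widely used readout of beta-catenin signalling, had 12, 6, 12 and 9 counts in NPY1R high and 8, 18, 9 and 14 in NPY1R low. Its log2 change of -0.27 (SE 0.36) had an adjusted p of 0.715, and at 6 to 18 counts per library a modest difference was not detectable. NKD1, a feedback inhibitor that binds Dishevelled, did not pass (adjusted p 0.906) and had 0.297 to 1.32 CPM in NPY1R high and 0.350 to 1.01 CPM in NPY1R low, and NKD2 had 65 counts in all.

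All 4 TCF and LEF factors were tested and none passed, against 13.6% of all genes. At an unadjusted p under 0.05 there was 1 of the 4 (25%, against 26.2% of all genes). TCF7L2, the most abundant, had 6.12, 6.66, 4.52 and 3.91 CPM in NPY1R high and 4.23, 4.97, 4.80 and 3.85 CPM in NPY1R low, and the groups overlapped (log2 change 0.26, SE 0.18, adjusted p 0.442). LEF1, which is both a factor and a target of the pathway, had 2.34, 2.19, 1.74 and 1.76 CPM in NPY1R high and 2.72, 3.15, 2.33 and 2.51 CPM in NPY1R low. Only NPY1R low replicate 3 reached the NPY1R high range. The log2 change was -0.41 (SE 0.17) with an adjusted p of 0.153. TCF7 had a mean of 0.909 CPM and TCF7L1 of 1.46 CPM.

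Of 102 other Wnt pathway genes listed by role, 77 were tested and 15 passed (19.5%, against 13.6% of all genes), 6 higher and 9 lower. In the list of 34 genes that carry the signal from receptor to nucleus, 2 passed (5.88%) and 32 did not. The co-repressor TLE4 rose from 0.498 ± 0.123 to 1.3 ± 0.204 CPM (SD, n = 4 each; log2 change 1.4, SE 0.24, adjusted p 0.00341), and its more abundant relative TLE3 fell from 95.5 ± 12.4 to 65.4 ± 9.34 CPM (SD, n = 4 each; log2 change -0.55, SE 0.12, adjusted p 0.0137). CTNNB1, which encodes beta-catenin, had 346.6 to 402.4 CPM in NPY1R high and 361.9 to 421.6 CPM in NPY1R low (log2 change -0.06, SE 0.07, adjusted p 0.628). The co-receptors LRP5 and LRP6 had log2 changes of -0.03 (SE 0.28, adjusted p 0.961) and -0.09 (SE 0.08, adjusted p 0.542). The LRP5 value changed sign under other settings; like WNT7B, it was lowest in NPY1R high replicate 3 (29.2 CPM) and NPY1R low replicate 4 (21.8 CPM).

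Among 9 tested extracellular modulators outside the module, 4 passed (44.4%, against 13.6% of all genes), 2 higher and 2 lower. The secreted LRP5 and LRP6 antagonist DKK1 was the more abundant DKK, at 17.1 CPM per kb in the mean over the 8 libraries. It had 28.4 to 32.3 CPM in NPY1R high and 27.1 to 35.7 CPM in NPY1R low and did not pass (log2 change -0.03, SE 0.10, adjusted p 0.889). DKK2, a gene of the same family, had 15.5 to 21.7 CPM in NPY1R high and 0.354 to 0.940 CPM in NPY1R low, the largest change in these lists (log2 change 4.70, adjusted p 3.71e-06). Its partner receptor KREMEN1 fell from 31.6 ± 2.46 to 17.7 ± 1.04 CPM (SD, n = 4 each; log2 change -0.83, SE 0.08, adjusted p 0.000138). The related receptor KREMEN2, with a mean of 3.34 CPM, did not pass (log2 change -0.34, SE 0.22, adjusted p 0.378). GPC6, a glypican of the cell surface, rose from 14.5 ± 2.37 to 34.2 ± 5.05 CPM (SD, n = 4 each; log2 change 1.24, SE 0.14, adjusted p 0.00032). BAMBI, a decoy receptor of the TGF-beta family that Wnt signalling can induce, was the other fall, at a log2 change of -0.32 (SE 0.08, adjusted p 0.0207). It missed the threshold without NPY1R high replicate 2, 3 or 4, or NPY1R low replicate 1 or 2 (adjusted p 0.0544 to 0.0883). Of 14 tested genes of planar polarity and beta-catenin-independent signalling, VANGL1 alone passed (7.14%, against 13.6% of all genes), with a log2 change of -0.19 (SE 0.05, adjusted p 0.0372), and the call was lost with median-of-ratios factors (0.0686) and without any 1 of 7 libraries, all but NPY1R high replicate 2 (0.0534 to 0.184).

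Of 20 tested genes known as beta-catenin targets elsewhere, 8 passed (40%, against 13.6% of all genes). Of the 20, 3 (15%) were higher, against 5.78% of all genes, and 5 (25%) lower, against 7.81%. The median log2 change of the list was -0.02, against -0.03 over all tested genes. MYC rose from 105.6 ± 9.13 to 155.7 ± 10.7 CPM (SD, n = 4 each; log2 change 0.56, SE 0.07, adjusted p 0.000797). JAG1, a Notch ligand, rose with a log2 change of 1.18 (SE 0.19, adjusted p 0.00271), and TNFRSF11B, which encodes osteoprotegerin, with 1.21 (SE 0.23, adjusted p 0.00643). TNFRSF19, ZBTB7C, SLC12A2 and VEGFA fell, by 0.71, 0.47, 0.57 and 0.72 on the log2 scale. PROM1 fell from 0.866 ± 0.179 to 0.315 ± 0.174 CPM (SD, n = 4 each; log2 change -1.43, SE 0.39, adjusted p 0.0365); the call was lost without NPY1R high replicate 1, 3 or 4, or NPY1R low replicate 2, 3 or 4, at adjusted p of 0.0624 to 0.110. CCND1, which encodes cyclin D1, had 313.0 ± 19.2 CPM against 298.5 ± 18.4 CPM in NPY1R low (SD, n = 4 each; adjusted p 0.571). Many of these genes have other regulators as well, and the list was written with earlier results of these data known.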

How the data were processed

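The authors deposited expected counts per gene symbol, unscaled between libraries; the submitters' processing notes name STAR 2.5.2, RSEM 1.3.0 and hg38, and the annotation is not given in the sources used here. Between 7.97% and 8.76% of a library's values were not whole numbers. Counts were rounded, filtered with filterByExpr (minimum count 10; 14008 of 26475 genes kept) and scaled by TMM. Groups were compared over the whole table with edgeR 4.0.16 (R 4.3.3) and its quasi-likelihood test without covariates, with Benjamini-Hochberg adjustment over all tested genes and a threshold of 0.05. Members and lists were chosen with earlier results of these data known. Named genes were called members, members of at least 5 CPM, the most abundant of each role, called other pathway genes with a log2 change of at least 1 (at most 6 per list), and CTNNB1, LRP5, LRP6, MYC and CCND1; any other was named after its values were seen. Transcript lengths, GC content (97.4% of tested genes) and gene coordinates came from GENCODE 29, using the longest coding transcript, and promoters and gene overlaps from RefSeq on GRCh38.p14. Levels per kb are approximate, since the transcripts in use are unknown. Single-sample tables held the same values as the series table (0 differing), and chi-square statistics between libraries of a group (6.04 to 67.2 per degree of freedom) showed no library deposited more than once. Alternatives were other scalings, filters, DESeq2 1.42.0, limma-voom (limma 3.58.1), a replicate block, a term for replicates 1 and 2 against 3 and 4, a GC offset (a spline with 5 degrees of freedom), unrounded counts, a stricter threshold and leaving out each library.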

Additional observations from a re-analysis of the deposited data

Results flagged for a closer look

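In 5 of 56 groups of 4 values tested, 1 library stood apart from the other 3 by more than Dixon's 95% critical gap; chance gives about 2.8 of 56. WNT5A in NPY1R high was highest in replicate 1 at 0.790 CPM, where the others had 0.220 to 0.289. WNT7B in NPY1R high was lowest in replicate 3 at 1.52 CPM, where the others had 3.81 to 4.16. FZD7 in NPY1R high was lowest in replicate 2 at 2.57 CPM, where the others had 3.80 to 3.88. FZD8 in NPY1R low was highest in replicate 2 at 6.34 CPM, where the others had 4.75 to 4.87, and it still lay below every NPY1R high library. ZNRF3 in NPY1R low was lowest in replicate 4 at 22 CPM, where the others had 25.8 to 26.1.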

How the results depend on the processing

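Of 977 refitted changes of 47 named genes, 896 had the direction and call of the report, 30 lost the call, 9 gained it and 42 changed sign. FZD2, FZD4, FZD8 and LGR4 passed 0.05 in every fit run; LGR6 lost the call in 4 fits that left out 1 library and was not tested with a filter of 1 CPM in 4 libraries. At an adjusted p under 0.01, 3 genes of the module passed, 2 of them higher. The share of all genes at that threshold is not given here, so this count has no background to read against. The count of lower genes, 1, was 2 with DESeq2, which added ZNRF3. It was 3 with the GC offset, alone or with the replicate block, and with the term for replicates 1 and 2 against 3 and 4. All 3 of these fits added RNF43 and ZNRF3. In either direction they each called 7 of 28 genes of the module, against 21.3%, 24% and 20.6% of all genes. DESeq2 called 6 of 28 in either direction, against 15.1%. Of all genes' calls, 1171 of 2980, 1351 of 3356 and 1205 of 2886 were higher in those 3 fits. With DESeq2, 1033 of 2121 were higher. Leaving out single libraries gave 1 to 2 lower genes, with 2 without NPY1R high replicate 1 (adding WNT5A) or NPY1R low replicate 4 (adding ZNRF3). Those 2 fits called 10.3% and 15% of all genes in either direction. Same-numbered libraries deviated with correlations of 0.3386, 0.1567, 0.0907 and 0.0178. Between the groups, correlations within replicates 1 and 2 or within 3 and 4, same numbers included, ran from 0.0178 to 0.5014. The highest was not between libraries of the same number, so the numbers were not taken as pairs. With the replicate block edgeR called 5 of 28 tested genes of the module, 4 of them higher, against 13.1% of all genes. Of the 1833 calls over all genes, 805 were higher. In that edgeR fit VANGL1 lost its call (adjusted p 0.0543). VANGL1 also missed with upper-quartile factors (0.115), library totals (0.134), another TMM reference (0.0723), no filter (0.147) and 1 CPM in 4 libraries (0.0776), and PROM1 with no filter (0.0541). Genes that did not pass changed sign, and the causes were not tested. With upper-quartile factors, library totals, no filter and 1 CPM in 4 libraries, the log2 change was 0.0273, 0.0138, 0.0148 and 0.016 for WLS, 0.0126, 0.0002, 0.0009 and 0.0021 for FZD3, and 0.023, 0.0103, 0.0043 and 0.0068 for LRP5. With NPY1R high replicate 1 as TMM reference WLS had 0.0045. LRP5 had 0.0071 with limma-voom, 0.0112 with the replicate block, 0.0052 with the term for replicates 1 and 2, 0.0378 with the GC offset and 0.043 with both block and offset. WNT11 had 0.0226 with upper-quartile factors, 0.0075 with library totals, 0.0119 with no filter, 0.0054 with DESeq2, 0.1167 with limma-voom, 0.0191 with the replicate block, 0.0281 with the GC offset and 0.0633 with both. Leaving out each library gave -0.0483 to 0.0602 for WLS, -0.07 to 0.071 for FZD3, -0.0533 to 0.1503 for AXIN1, -0.5535 to 0.0571 for WNT7B, -0.0928 to 0.0184 for CTNNB1, -0.4613 to 0.1462 for NKD1, -0.2804 to 0.2712 for WNT11, -0.0245 to 0.3197 for WNT2B and -0.2269 to 0.1508 for LRP5. Depth limits the low genes: AXIN2, LGR6 and the ligands other than WNT7B had under 50 counts in every library.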
